A study of Mus musculus with 6 samples.

Results

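The genes described here encode proteins of the cytosolic ribosome. They were taken as the genes whose mouse symbol is Rpl or Rps followed by a number, with an optional a, l, x or y, or *Rplp0*, *Rplp1* or *Rplp2*, and that a probe set (a group of short probes read as 1 value) names alone on the array. The rule found 44 of the 12393 genes measured, 22 of the large subunit, 20 of the small subunit and 2 of the acidic stalk, each read by its brightest probe set. Of these, 41 passed the filter on low values, as did 8693 of all genes. RNA came from the thymus of 3-week-old C57BL6 mice. All mice are labelled Cd3e-/-, a genotype in which thymocytes cannot form a working pre-T-cell receptor. Of the 6 Affymetrix arrays, 3 are labelled SCLtg LMO1tg and carry 2 transgenes, SCL driven by the Sil promoter and LMO1 driven by the Lck promoter, and 3 are labelled control and carry neither. SCL and LMO1 are oncogenes of T-cell acute lymphoblastic leukemia, and the arrays were made to look for genes that change when both are expressed in thymocytes before leukemia.

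A ribosome joins a small subunit, which reads the messenger RNA, to a large subunit, which forms the peptide bond. Their proteins are made in near equal amounts in growing cells, and their messages begin with a run of pyrimidines, the 5′ terminal oligopyrimidine (TOP) sequence, through which the kinase mTOR and the protein Larp1 set how well they are translated. In the thymus, proliferating immature thymocytes need high protein synthesis, and in human T-cell leukemia several ribosomal protein genes are mutated or lost.

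The direction of every comparison depends on the labels, and the signal of the *Lmo1* probe set went against them. It was at 5.11, 5.07 and 4.86 in the arrays labelled SCLtg LMO1tg and at 6.64, 6.84 and 6.77 in the arrays labelled control (log2 values), a difference of −1.74 (SE 0.14, limma adjusted p = 8.3e-04). *Tal1*, the gene of SCL, was too dim to pass the filter, at 4.55, 4.63 and 4.71 in the arrays labelled SCLtg LMO1tg and at 4.35, 4.27 and 4.44 in those labelled control. Whether either probe set reads its transgene is not known from these data. An exchange of labels was not tested and would turn the sign of each difference below. Differences are given as the arrays labelled SCLtg LMO1tg minus those labelled control, and SE is the standard error from limma. The sources used here leave unsaid whether each array stands for its own mouse, and the p-values cover only the spread from array to array. In bulk RNA, fewer cells of a type and less RNA per cell cannot be told apart. The arrays also fell into 2 sets by the brightness of 9 bacterial hybridization control probe sets, at 10.24 to 10.45 in SCLtg LMO1tg array 1 and control arrays 2 and 3, and at 8.64 to 9.19 in SCLtg LMO1tg arrays 2 and 3 and control array 1. E proteins, which SCL binds and inhibits, activate *Ptcra*, the pre-T-cell receptor alpha chain, and *Cdkn1a*, a cell cycle inhibitor. *Ptcra* was at 10.35, 10.32 and 10.39 in the arrays labelled SCLtg LMO1tg and at 9.36, 8.96 and 8.90 in those labelled control (1.28, adjusted p = 0.0127). *Cdkn1a* was at 8.86, 8.61 and 8.82 in the arrays labelled SCLtg LMO1tg and at 7.95, 7.55 and 7.35 in those labelled control (1.14, adjusted p = 0.0512). For both genes the arrays labelled SCLtg LMO1tg lay above those labelled control, the opposite of the direction that this background gives. The dim *Tal1* probe set was higher under the SCLtg LMO1tg label without overlap (0.28), and the *Lmo1* probe set was lower. What these directions mean for the labels was not tested. Of the 9 immature thymocyte markers that passed the filter, *Ptcra* among them, 8 had a positive difference. For 3 of the 9 the arrays labelled SCLtg LMO1tg lay wholly above those labelled control, against 7.32% of all genes. These were *Ptcra*, *Rag1* (0.97, adjusted p = 0.184) and *Rag2* (0.82, adjusted p = 0.266). *Il2ra* differed by 0.0072 and *Cd3g* by −0.18, with overlap. *Cd3e* itself read 8.57, 8.53 and 8.65 in the arrays labelled SCLtg LMO1tg and 8.41, 8.42 and 8.72 in those labelled control. Its probe set passed the filter in both groups and is no check of the deletion here, since its place relative to the deleted part is not known.

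The sequence at the start of these genes is shown because TOP messages are defined by it. RefSeq promoters (build GRCm38.p6) were found for 38 of the 44 genes, 7 of them with several starts, and 8 of the 38 (21.1%) had an annotated start at a C followed by 4 pyrimidines, against 3.01% of 27025 genes. This count depends on the exact base annotated as the start. In *Rpl27a* and *Rpl7a*, for example, that base is a T inside a pyrimidine run, and neither is counted. The count therefore does not show that the other genes lack a TOP start. The windows of 30 bases below run 5′ to 3′ from 15 bases before the start, with the pyrimidine run from the start base in capitals.
Rpl14 (chr9:120571502-120571531, + strand): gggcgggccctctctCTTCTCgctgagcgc
Rpl35 (chr2:39005117-39005146, − strand): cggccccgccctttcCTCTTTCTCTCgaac
Rpl38 (chr11:114668565-114668594, + strand): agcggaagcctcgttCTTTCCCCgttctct
Rplp2 (chr7:141447636-141447665, + strand): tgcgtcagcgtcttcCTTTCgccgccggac
Rps6 (chr4:86857353-86857382, − strand): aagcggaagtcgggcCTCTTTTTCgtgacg
Rps10 (chr17:27635230-27635259, − strand): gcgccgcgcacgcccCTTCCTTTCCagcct
Rps18 (chr17:33955651-33955680, − strand): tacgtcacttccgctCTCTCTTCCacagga
Rps27 (chr3:90213634-90213663, − strand): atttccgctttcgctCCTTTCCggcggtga
The longest run, 11 pyrimidines, belonged to *Rpl35* and the shortest of the 8, with 5, to *Rplp2*. Searched on both strands of the 300 bases around each start, the letters CCGGAAG, a core that ETS factors bind, were present in 19 of the 38 promoters (50%) against 9.93% of all genes. The letters AAGATGGC, a core of the YY1 site, were in 3 (7.89% against 3.19%) and GGGCGG, a core of the Sp1 site, in 20 (52.6% against 38.2%). The first 2 of these motifs can share the letters AAG. A match is a description of the sequence, and these 8 genes include the highest difference of the ribosomal protein genes (*Rpl14*) and 2 of those below 0 (*Rpl38* and *Rps27*).

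No ribosomal protein gene passed the test. At a Benjamini-Hochberg adjusted p under 0.05 over all genes, 0 of the 41 were higher and 0 lower in the arrays labelled SCLtg LMO1tg, beside 7 of 8693 genes higher (0.0805%) and 7 lower (0.0805%). The smallest adjusted p was 0.243. At an unadjusted p under 0.05, 3 of the 41 were higher (*Rpl14*, *Rps25* and *Rps6*), against 6.30% of all genes, and 0 were lower, against 3.14%. The 3 arrays labelled SCLtg LMO1tg lay wholly above the 3 labelled control for 5 of the 41 (*Rpl14*, *Rps6*, *Rpl22*, *Rpl27* and *Rpl8*), against 7.32% of all genes, and wholly below for 0 of the 41, against 6.37%.

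The differences were small and mostly of one sign. Of the 41 genes, 35 (85.4%) had a positive difference, against 48.7% of all genes, with a median of 0.12 against −0.0080 and a range of −0.29 to 1.03. The difference was within 0.2 of 0 for 28 genes and above 0.3 for 7. Both subunits showed this, with 17 of 20 large subunit genes positive (median 0.13), 16 of 19 small subunit genes (median 0.10) and both stalk genes (median 0.24). The genes share their arrays, so these counts are not 41 independent readings. Of the 41, 30 had a mean of at least 10, and of all 303 genes that bright 73.9% were positive (median 0.13). The *Lmo1* probe set was lower under the SCLtg LMO1tg label, and whether it reads the transgene is not known. Which group the small differences of the ribosomal protein genes favour rests on labels that the signal of this probe set goes against.

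**Figure D1:**
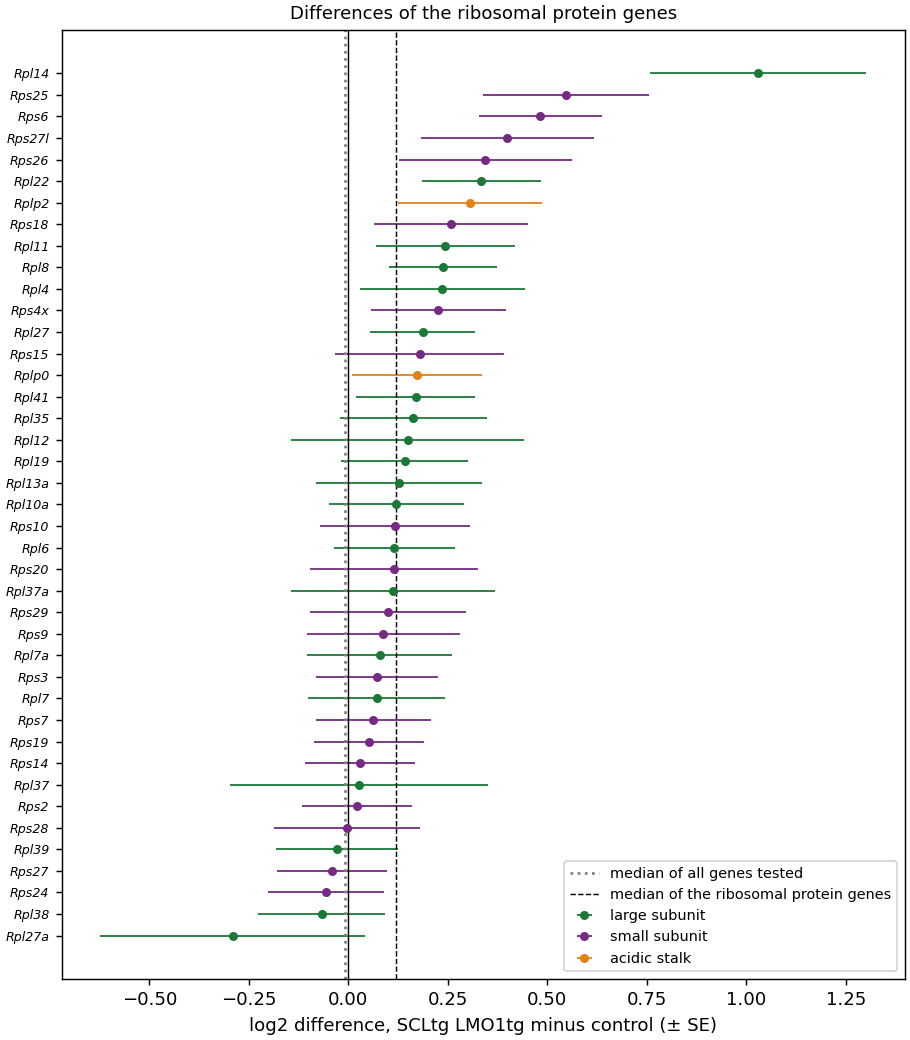
The log2 difference of each of the 41 ribosomal protein genes that passed the filter, SCLtg LMO1tg minus control (horizontal axis), with bars of 1 SE from limma, coloured by subunit and ordered by size. The dashed line is their median, 0.12, and the dotted line is the median of all 8693 genes, −0.0080; *Rpl14* at 1.03 stands apart from the rest, and most bars reach 0 or come near it.

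Control array 2 carried most of this shift. With each gene set against its own mean over the 6 arrays, the median over the 41 genes was 0.11, 0.02 and 0.10 in SCLtg LMO1tg arrays 1, 2 and 3 and 0.05, −0.24 and −0.0061 in control arrays 1, 2 and 3. Control array 2 was alone in lying far from the others, and the median over all genes lay between −0.0079 and 0.02 in every array. It was the lowest of the 6 arrays for 23 of the 41 genes (56.1%), against 19.4% of all genes. The mean of the SCLtg LMO1tg arrays lay above control array 2 for 36 of the 41 genes (median difference 0.34), above control array 1 for 25 (0.05) and above control array 3 for 23 (0.07). Without control array 2 the median difference was 0.03, with 26 of 41 genes positive. The highest readings were spread over more arrays, with 9, 4 and 13 genes highest in SCLtg LMO1tg arrays 1, 2 and 3 and 4, 1 and 10 in control arrays 1, 2 and 3.

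The same array stood apart in a measure of RNA quality. For *Actb*, the probe set at the 3′ end of the message exceeded that at the 5′ end by 2.71, 2.26 and 2.54 in SCLtg LMO1tg arrays 1, 2 and 3 and by 2.52, 1.48 and 2.86 in control arrays 1, 2 and 3 (log2). For *Gapdh* the same measure was 3.51, 3.12 and 3.10 in the arrays labelled SCLtg LMO1tg and 3.17, 2.38 and 3.01 in those labelled control. Control array 2 had the smallest excess of the 3′ end for both genes, and its part in the shift of the ribosomal protein genes was not tested. Within the arrays of high hybridization controls, SCLtg LMO1tg array 1 lay above the mean of control arrays 2 and 3 for 38 of the 41 genes (median 0.19, 50.2% of all genes positive). Within the arrays of low hybridization controls, the mean of SCLtg LMO1tg arrays 2 and 3 lay above control array 1 for 25 of the 41 (median 0.02, 50.6% of all genes positive). The difference was positive in both sets for 22 genes and negative in both for 0, and the share over all genes was not computed. With 38 of 41 positive in the arrays of high hybridization controls, few genes could be negative in both.

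**Figure D2:**
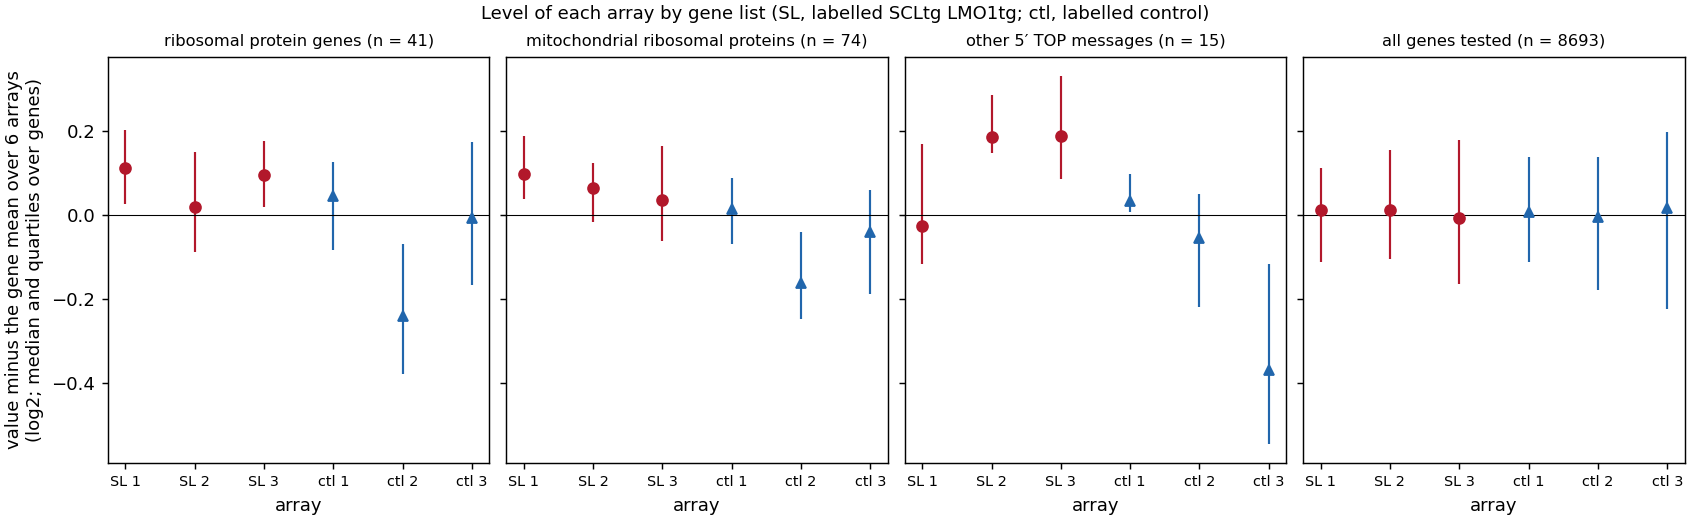
Median (points) and quartiles (bars) over genes of the log2 value minus the gene's mean over the 6 arrays, for each array (horizontal axis; SL, labelled SCLtg LMO1tg; ctl, labelled control) in 4 lists. Control array 2 is low for the ribosomal protein genes (−0.24) and the mitochondrial ones (−0.16), control array 3 for the other TOP messages (−0.37), and all genes lie near 0.

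*Rpl14*, a protein of the large subunit, had the largest difference. It was at 6.75, 6.76 and 7.01 in the arrays labelled SCLtg LMO1tg and at 6.45, 5.19 and 5.80 in those labelled control. The groups did not overlap, and control array 2 was again the lowest. The difference was 1.03 (SE 0.27, limma adjusted p = 0.243), and 0.72 without control array 2. A brighter probe set that also names the pseudogene *Rpl14-ps1* read 10.77, 10.65 and 10.68 in the arrays labelled SCLtg LMO1tg and 10.76, 9.88 and 10.50 in those labelled control. By that probe set the groups overlapped and the difference was 0.32 (SE 0.21), so the size of the *Rpl14* difference depends on which probes read it. Without control array 1 the 1-gene probe set of *Rpl14* passed the test, at 1.35 (adjusted p = 0.0421).

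*Rpl22*, a large subunit protein that developing αβ T cells need in mice, was at 9.65, 9.66 and 9.63 in the arrays labelled SCLtg LMO1tg and at 9.55, 9.21 and 9.18 in those labelled control. The groups did not overlap, with control array 1 the nearest to the SCLtg LMO1tg arrays, and the difference was 0.33 (SE 0.15, adjusted p = 0.526). Its other probe set gave 0.68, also without overlap. The other large subunit genes without overlap were *Rpl27* and *Rpl8*. *Rpl27* was at 10.06, 9.97 and 10.09 in the arrays labelled SCLtg LMO1tg and at 9.87, 9.91 and 9.78 in those labelled control. *Rpl8*, near the centre where the peptide bond forms, was at 11.51, 11.55 and 11.62 in the arrays labelled SCLtg LMO1tg and at 11.43, 11.22 and 11.30 in those labelled control. Their differences were small, 0.19 for *Rpl27* (adjusted p = 0.647) and 0.24 for *Rpl8* (adjusted p = 0.598).

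*Rpl11*, which with *Rpl5* binds the 5S RNA and, when free of ribosomes, the p53 inhibitor Mdm2, was at 10.60, 10.38 and 10.45 in the arrays labelled SCLtg LMO1tg and at 10.40, 9.89 and 10.41 in those labelled control (0.24, SE 0.17, adjusted p = 0.647). Control array 2 lay apart from the other 5 arrays, and without it the difference was 0.07. *Rpl13a*, which also acts in the GAIT complex that silences inflammatory messages in human myeloid cells, was at 11.65, 11.91 and 11.93 in the arrays labelled SCLtg LMO1tg and at 12.17, 11.39 and 11.55 in those labelled control (0.13, SE 0.21). Control array 1 was the highest of the 6 arrays and control array 2 the lowest. Its 4 one-gene probe sets gave 0.13 to 0.81, the 2 dimmest of them without overlap, while a brighter one that also names another locus gave −0.0034.

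*Rpl27a*, a large subunit protein, had the lowest difference. It was at 8.97, 7.67 and 8.45 in the arrays labelled SCLtg LMO1tg and at 8.17, 8.61 and 9.17 in those labelled control. Both groups spread widely and overlapped (−0.29, SE 0.33, adjusted p = 0.753). A brighter shared probe set of *Rpl27a* gave −0.09 (SE 0.15). *Rpl38*, which mouse embryos need to translate a subset of *Hox* messages, was at 11.76, 11.64 and 11.46 in the arrays labelled SCLtg LMO1tg and at 11.75, 11.46 and 11.86 in those labelled control (−0.07, SE 0.16). *Rpl37* was at 7.87, 7.39 and 7.97 in the arrays labelled SCLtg LMO1tg and at 7.39, 7.20 and 8.56 in those labelled control (0.03, SE 0.32). A brighter shared probe set of *Rpl37* gave 0.14 (SE 0.21). By their 1-gene probe sets these 3 genes overlapped between the groups, with the sign set by single arrays. Of the 10 large subunit genes not described singly, *Rpl4* had the highest difference (0.24, SE 0.21) and *Rpl7* the lowest (0.07, SE 0.17).

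**Figure D3:**
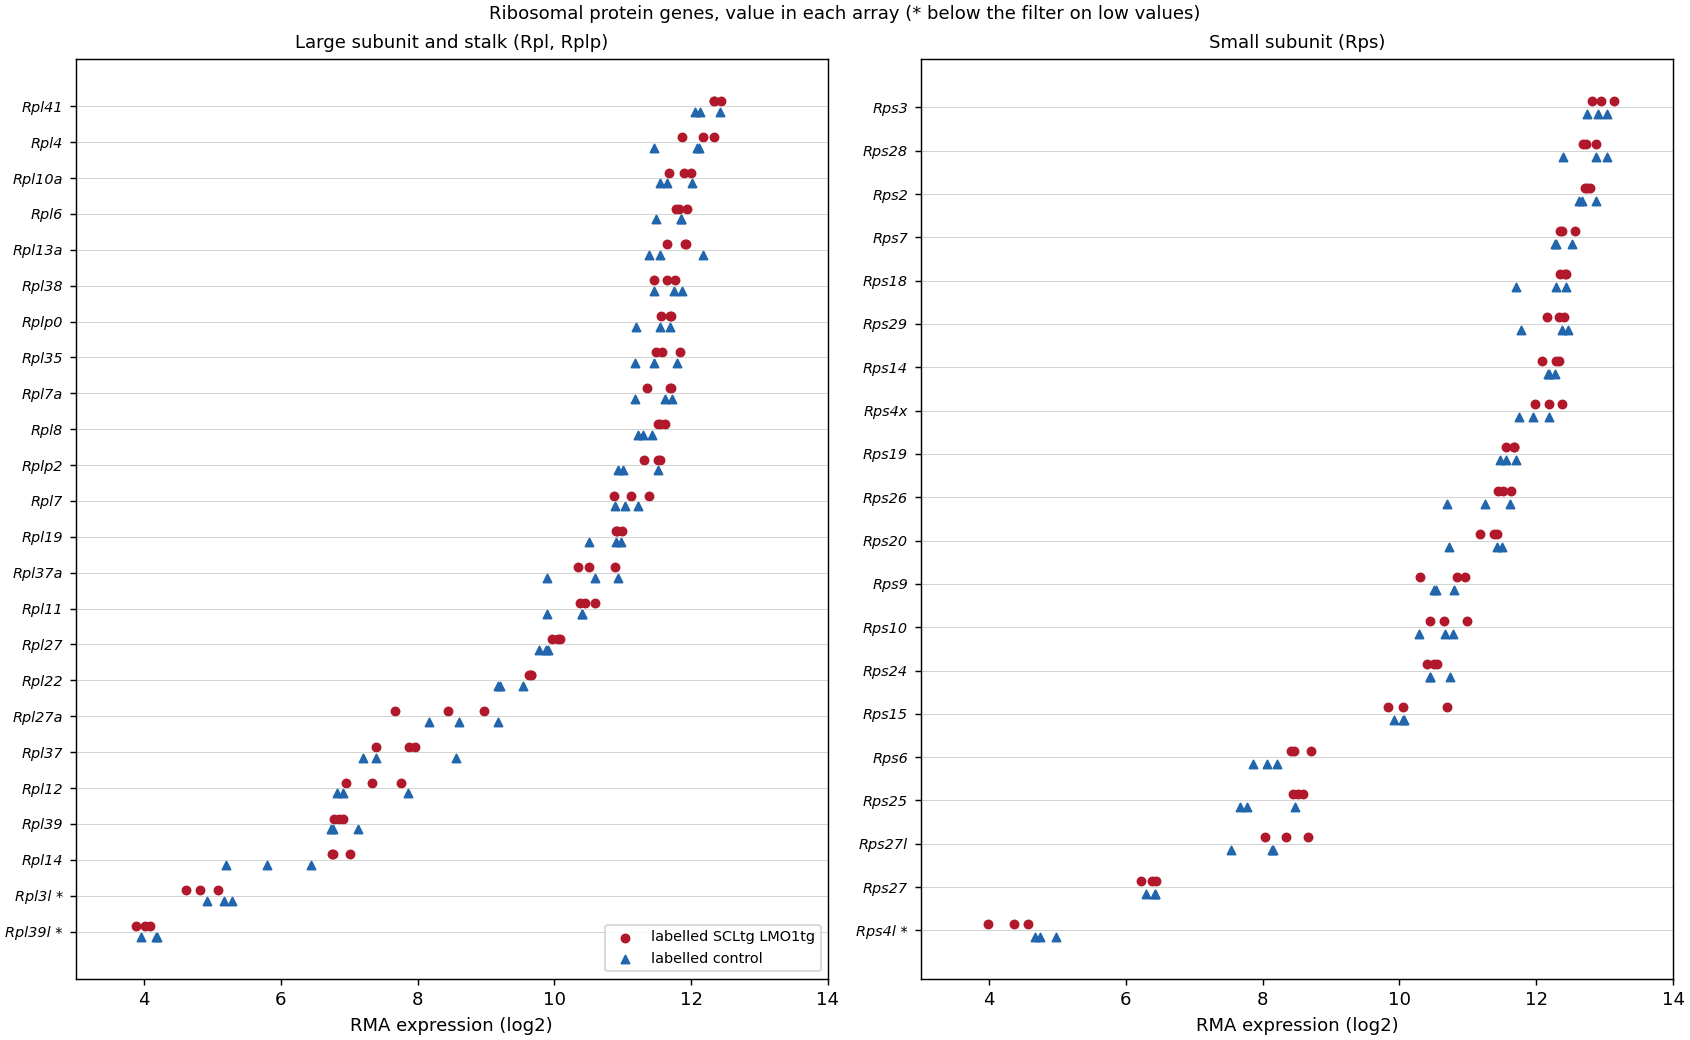
RMA expression (log2, horizontal axis) of the 44 ribosomal protein genes in each of the 3 arrays labelled SCLtg LMO1tg (red circles) and the 3 labelled control (blue triangles), large subunit and stalk on the left, small subunit on the right, each ordered by its mean. The groups overlap for most genes, *Rpl14* shows the widest parting, and an asterisk marks the 3 genes below the filter.

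In the small subunit, *Rps6*, the protein that S6 kinase phosphorylates downstream of mTOR, was at 8.42, 8.46 and 8.70 in the arrays labelled SCLtg LMO1tg and at 8.20, 8.07 and 7.86 in those labelled control. The groups did not overlap (0.48, SE 0.15, adjusted p = 0.378). The far brighter probe set that *Rps6* shares with *Rps6-ps4* was at 13.59, 13.90 and 13.94 in the arrays labelled SCLtg LMO1tg and at 13.70, 13.61 and 13.91 in those labelled control (0.07, SE 0.16). There the groups overlapped fully. The other probe sets shared by *Rps6* and *Rps6-ps4* gave −0.21 to 0.06. The second 1-gene probe set of *Rps6*, below the filter, gave −0.15, so the sign depends on which probes read the gene. *Rps25*, which some viral messages need to start translation from an internal site, was at 8.59, 8.44 and 8.52 in the arrays labelled SCLtg LMO1tg and at 8.47, 7.67 and 7.77 in those labelled control (0.55, SE 0.21, adjusted p = 0.456). Control array 1 lay within the SCLtg LMO1tg arrays, and control arrays 2 and 3 lay below them. Its brighter shared probe set gave 0.28.

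*Rps26*, which touches the message before the start codon and is mutated in the human anemia named after Diamond and Blackfan, was at 11.63, 11.51 and 11.44 in the arrays labelled SCLtg LMO1tg and at 11.25, 10.69 and 11.61 in those labelled control (0.34, SE 0.22). *Rps18*, of the head of the small subunit, was at 12.42, 12.44 and 12.34 in the arrays labelled SCLtg LMO1tg and at 12.43, 11.71 and 12.29 in those labelled control (0.26, SE 0.19). In both genes control array 2 lay well below the other 5 arrays, and the groups overlapped. *Rps4x* (0.23, SE 0.17) and *Rps15* (0.18, SE 0.21) followed, and the groups overlapped for both.

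*Rps19*, the gene most often mutated in Diamond-Blackfan anemia, was at 11.68, 11.55 and 11.67 in the arrays labelled SCLtg LMO1tg and at 11.55, 11.47 and 11.71 in those labelled control (0.05, SE 0.14, adjusted p = 0.894). *Rps14*, whose loss causes the anemia of the human 5q deletion, was at 12.29, 12.09 and 12.33 in the arrays labelled SCLtg LMO1tg and at 12.27, 12.17 and 12.19 in those labelled control (0.03, SE 0.14). *Rps24*, also a Diamond-Blackfan gene, was at 10.55, 10.40 and 10.51 in the arrays labelled SCLtg LMO1tg and at 10.74, 10.45 and 10.44 in those labelled control (−0.06, SE 0.15). *Rps19*, *Rps14* and *Rps24* lay within the spread between arrays, and the 6 probe sets of *Rps24*, dim ones included, ran from −0.20 to 0.54.

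*Rps2*, at the entry of the message, was at 12.79, 12.71 and 12.74 in the arrays labelled SCLtg LMO1tg and at 12.62, 12.87 and 12.67 in those labelled control (0.02, SE 0.14). *Rps28*, at the exit of the message, was at 12.87, 12.69 and 12.73 in the arrays labelled SCLtg LMO1tg and at 12.87, 12.39 and 13.04 in those labelled control (−0.0042, SE 0.18). In both genes the SCLtg LMO1tg arrays lay inside the range of the control arrays, and all 3 probe sets of *Rps28* gave values just under 0, from −0.07 to −0.0042. Apart from *Rps27l*, described beside its partner further on, the other 7 small subunit genes that passed the filter (*Rps3*, *Rps7*, *Rps9*, *Rps10*, *Rps20*, *Rps29* and the paralog *Rps27*) had differences between −0.04 and 0.12.

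The acidic stalk recruits and activates the translation factors. Its base, *Rplp0*, was at 11.56, 11.69 and 11.70 in the arrays labelled SCLtg LMO1tg and at 11.69, 11.54 and 11.19 in those labelled control (0.17, SE 0.16, adjusted p = 0.711). *Rplp2*, one of the proteins that form the mobile tip, was at 11.31, 11.51 and 11.55 in the arrays labelled SCLtg LMO1tg and at 11.51, 10.93 and 11.00 in those labelled control (0.31, SE 0.18, adjusted p = 0.608). For *Rplp0* the lowest array was control array 3, not control array 2, and for *Rplp2* control array 1 lay among the SCLtg LMO1tg arrays. Their partner *Rplp1* was read only by a probe set that also names another locus, at 12.00, 11.89 and 11.83 in the arrays labelled SCLtg LMO1tg and at 11.82, 11.55 and 11.85 in those labelled control (0.17, SE 0.15).

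Paralogs were read beside their partners. *Rps27l*, a target of p53 in human cells, was at 8.66, 8.03 and 8.33 in the arrays labelled SCLtg LMO1tg and at 8.15, 7.54 and 8.14 in those labelled control (0.40, SE 0.22, adjusted p = 0.580). Its 3 probe sets gave nearly one value, 0.38 to 0.41, and for 1 of them the groups did not overlap. Its partner *Rps27* was at 6.43, 6.39 and 6.22 in the arrays labelled SCLtg LMO1tg and at 6.30, 6.43 and 6.43 in those labelled control (−0.04, SE 0.14). By a brighter shared probe set it was at 11.65, 11.52 and 11.55 in the arrays labelled SCLtg LMO1tg and at 11.51, 11.09 and 11.67 in those labelled control (0.15, SE 0.17). Neither reading of *Rps27* parted the groups. The difference between the 2 paralogs was not tested.

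*Rpl39*, a small protein of the tunnel through which the peptide leaves, was at 6.86, 6.78 and 6.91 in the arrays labelled SCLtg LMO1tg and at 6.74, 6.77 and 7.13 in those labelled control (−0.03, SE 0.15), and a brighter shared probe set gave −0.09. Its paralog *Rpl39l*, made mainly in male germ cells, lay below the filter, at 4.09, 4.02 and 3.88 in the arrays labelled SCLtg LMO1tg and at 3.96, 4.18 and 4.20 in those labelled control. *Rpl3l*, made in muscle, lay below it as well, at 5.08, 4.82 and 4.62 in the arrays labelled SCLtg LMO1tg and at 4.92, 5.17 and 5.29 in those labelled control. *Rps4l*, a paralog of *Rps4x*, was the remaining gene below the filter, at 4.57, 4.36 and 3.98 in the arrays labelled SCLtg LMO1tg and at 4.75, 4.67 and 4.98 in those labelled control. Its groups did not overlap, but at values this near the floor of the arrays it was not tested.

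Many ribosomal protein genes have near-identical pseudogenes, and reads by their probes are uncertain for that reason. Probe sets with the suffix _x_at, which the maker gives where probes can match other transcripts, made up 42.6% of the 94 probe sets that name a ribosomal protein gene alone, against 6.29% of all 1-gene probe sets. Of the 94, 86 passed the filter and 68 of those had a positive difference (median 0.14). Of the 21 genes with several probe sets, 13 had 1 sign in all of them, whether or not the probe sets passed the filter. A further 102 probe sets name a ribosomal protein gene with other genes, and of the 95 that passed the filter 81 were positive (median 0.16).

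Shared probe sets alone read 27 further ribosomal protein genes, among them *Rpl5*, *Rpl3* and *Rpl10*. *Rpl5*, the partner of *Rpl11*, was at 13.03, 13.04 and 13.09 in the arrays labelled SCLtg LMO1tg and at 13.08, 13.02 and 12.76 in those labelled control (0.10, SE 0.14). *Rpl10*, which carries recurrent mutations in human T-cell leukemia, was at 12.05, 12.27 and 12.20 in the arrays labelled SCLtg LMO1tg and at 12.16, 11.88 and 11.96 in those labelled control (0.17, SE 0.15). *Rpl3*, the partner of *Rpl3l*, differed by 0.18 (SE 0.14). Of the 27 genes, 26 had a positive difference, with a median of 0.16 and a range of −0.04 for *Rpl15* to 0.42 for *Rpl36a*. With such probe sets admitted, 61 of 68 genes (89.7%) were positive with a median of 0.15, the highest difference was 0.42, and 0 passed the test. That *Rpl14* no longer led followed from its brighter probe set, since 10 of the 44 genes were then read by a shared one.

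**Figure D4:**
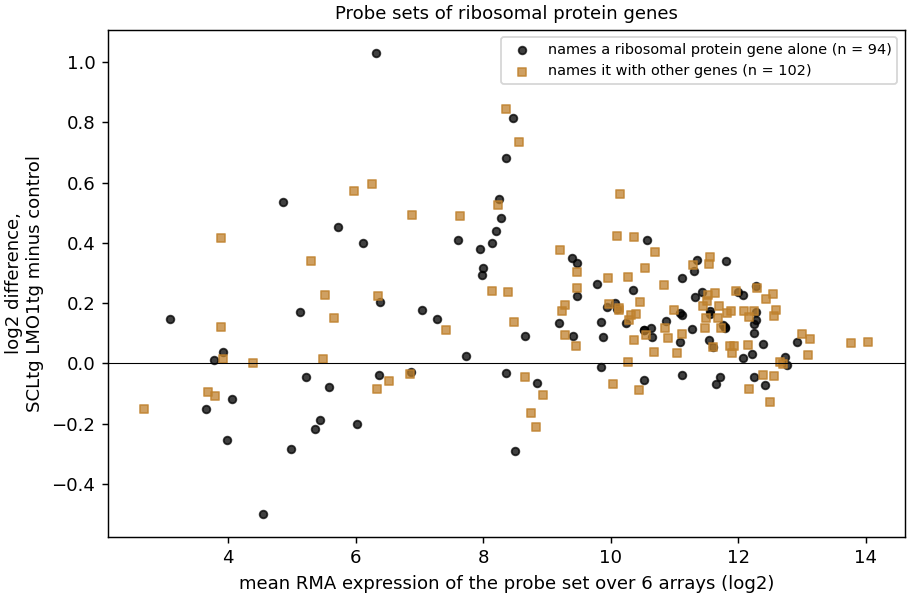
Log2 difference, SCLtg LMO1tg minus control (vertical axis), against mean RMA expression over the 6 arrays (log2, horizontal axis) for the 94 probe sets that name a ribosomal protein gene alone (black circles) and the 102 that name it with other genes (brown squares). The largest difference, 1.03, is that of *Rpl14* at a mean of 6.33, and the points draw closer to 0 toward the bright end.

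Most bright genes, counted over all genes tested, shared the sign. The values of different probe sets do not rank the amounts of their RNAs, but they allow the ribosomal protein genes to be set beside all genes of like brightness. The counts over all genes include the ribosomal protein genes themselves. Of the 30 ribosomal protein genes with a mean of at least 10 on the log2 scale, 27 were positive (90%, median 0.12), against 73.9% of all 303 genes that bright (median 0.13). The medians were thus about equal, and the groups parted upward for 1 of the 30 and for 39 of the 303. Of the 11 ribosomal protein genes below 10, 8 were positive (median 0.19) and 4 parted upward. Of all 8390 genes below 10, 47.8% were positive (median −0.01) and 597 parted upward. The spread between arrays of a group was much the same, with a median pooled SD of 0.23 for the ribosomal protein genes and 0.20 for all genes.

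Other parts of the translation machinery were counted beside them, from lists chosen with earlier results of these data known. Of 74 genes of mitochondrial ribosomal proteins, which serve a separate ribosome, 63 were positive (85.1%, median 0.15), 14 parted upward, against 7.32% of all genes, and 0 passed the test. Control array 2 was the lowest array for 43.2% of them. Of 5 ribosomal proteins outside the symbol rule, *Rpsa* differed by 0.23, *Fau* by 0.0026, *Rps3a1* by 0.18, *Rpl22l1*, the paralog of *Rpl22*, by 0.23 and *Rpl7l1* by 0.27. *Rpl22l1* was at 9.59, 9.69 and 10.06 in the arrays labelled SCLtg LMO1tg and at 9.87, 9.10 and 9.68 in those labelled control, and the groups overlapped for each of the 5.

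Of 15 other TOP messages, 14 were positive (median 0.21) and 0 passed the test. The largest difference was that of *Nap1l1*, a histone chaperone, at 9.74, 9.93 and 9.86 in the arrays labelled SCLtg LMO1tg and at 9.53, 8.96 and 8.92 in those labelled control (0.71, adjusted p = 0.238). *Npm1*, a nucleolar chaperone of ribosome assembly, was at 10.24, 10.17 and 10.27 in the arrays labelled SCLtg LMO1tg and at 9.97, 9.70 and 9.30 in those labelled control (0.57, adjusted p = 0.374). *Eef1b2*, an elongation factor subunit, differed by 0.45 (adjusted p = 0.442). The groups parted upward for these 3 of the 15, against 7.32% of all genes, and for none of the other 12. In this list control array 3, not control array 2, was the lowest array, for 60% of the genes. Of 9 regulators of TOP messages and ribosome synthesis, 4 were positive (median −0.03). *Larp1*, which binds the TOP sequence, differed by 0.30 (SE 0.19), *Mtor* by −0.05 (SE 0.15) and *Myc*, which drives ribosomal protein transcription, by 0.12 (SE 0.14), and 0 of the 9 passed the test.

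Markers of cell types were read in the same arrays. Of 11 immature thymocyte markers listed 9 were measured and passed the filter, and 1 passed the test (*Ptcra*, adjusted p = 0.0127). The groups parted upward for 3 of the 9 (*Ptcra*, *Rag1* and *Rag2*), against 7.32% of all genes. The summed level of the 9 on the linear scale ran from 8565 to 12068 in the arrays labelled SCLtg LMO1tg and from 7017 to 9384 in those labelled control. Of 8 neutrophil markers, 6 parted upward, against 7.32% of all genes, with a median difference of 1.46 over the 8, and 0 passed the test. Their summed level ran from 1334 to 3053 in the arrays labelled SCLtg LMO1tg and from 534 to 1049 in those labelled control. Of 3 B cell markers that passed the filter, 2 parted downward (*Cd79a*, −0.64, and *Ms4a1*, −0.77), against 6.37% of all genes. The summed level of the 5 measured ran from 260 to 276 in the arrays labelled SCLtg LMO1tg and from 267 to 395 in those labelled control. The 6 macrophage and dendritic cell markers had a median of −0.02, with sums of 1415 to 2078 in the arrays labelled SCLtg LMO1tg and 1418 to 2173 in those labelled control. The 4 erythroid markers that passed the filter had a median of 0.26. *Epor*, 1 of the 4, parted downward (−0.30), against 6.37% of all genes, and *Slc4a1* was the highest (1.07), with overlap. The 5 measured summed to 670 to 1235 in the arrays labelled SCLtg LMO1tg and to 531 to 726 in those labelled control. The B cell sum was led by *Cd79b* (0.0082, with overlap) and includes *Pax5* and *Ebf1*, which lay below the filter. *H2-Aa* led the macrophage and dendritic cell sum and *Alas2* the erythroid sum. Values of different probe sets do not rank the amounts of their RNAs, so the sums are descriptions alone. The part of these cell types in the differences of the ribosomal protein genes was not tested.

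Settings moved the median difference of the 41 genes without turning it. It was 0.03 without control array 2 and 0.05 after the arrays were quantile normalized once more, where 27 of 41 genes were positive. It was 0.17 to 0.19 with the arrays centred on their medians, with array weights, and without SCLtg LMO1tg array 2, control array 1 or control array 3. Some settings moved all genes as well, from a median of −0.0080 with 48.7% positive. Centring gave all genes a median of 0.04 with 57.2% positive, and the second quantile normalization gave −0.03 with 43.7% positive. With array weights 2 of the 41 genes passed the test, *Rpl14* (adjusted p = 0.0139) and *Rps25* (adjusted p = 0.0453), in a fit that gave SCLtg LMO1tg array 2 a weight of 4.96 and called 547 genes in all.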

How the data were processed

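RNA from thymocytes was measured on 6 Affymetrix arrays. The deposited values are log2 expression per probe set. The authors summarized the scans with RMA (affy), and the submitters' processing notes also name MAS5 (versions not given in the sources used here). They cover 22690 probe sets and range from 2.36 to 14.12. In the platform annotation 20380 probe sets have 1 gene, 691 have several, 1555 have none and 64 are controls. All 44 symbols of the ribosomal protein genes matched RefSeq. No scanner files were used here, so the number of arrays limits the precision.

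The filter kept probe sets that reached the 40th percentile of the array in 3 or more of the 6 arrays (13835 probe sets). The brightest probe set by mean stood for its gene, and 8693 genes were fitted with limma 3.58.1 in R 4.3.3 (lmFit and eBayes, no covariate), with Benjamini-Hochberg adjusted p under 0.05 as the threshold. The procedure was tested on simulated data. The rank products of the study permute over genes and were not run. Alternatives were a filter at the 60th percentile or none, a second quantile normalization, arrays centred on medians, probe sets averaged per gene, array weights, the replicate number or the hybridization set as a block, each array left out, an adjusted p under 0.1, and, chosen after seeing the data, shared probe sets admitted. Residuals of arrays with the same number correlated at −0.64, 0.014 and −0.38, and the numbers were therefore not used as pairs.

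Members and lists were chosen with earlier results of these data known. The text names, by rule, genes that passed the test, the 8 highest and the 8 lowest differences, genes set by role (stalk, 5S particle, *Rpl22*, *Rpl10*, *Rps6*, *Rps14*, *Rps19*, *Rpl13a*, *Rps27a*), paralogs with partners and genes below the filter. *Rps27a* and *Rpl10l* have no value here. *Rpl27*, *Rpl8*, *Rpl4*, *Rpl7*, *Rps4x*, *Rps15*, *Rpl15*, *Rpl36a*, *Cd3e*, *Cdkn1a* and the genes of the lists lie outside the rule and were named after their values were seen.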

Additional observations from a re-analysis of the deposited data

How the results depend on the processing

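The count of ribosomal protein genes past the threshold, 0, was also 0 under every alternative except array weights, where it was 2, and without control array 1, where it was 1 (range 0 to 1 over arrays left out). Of all genes, 14 passed, against 31 after a second quantile normalization, 28 where the hybridization set was a block, 547 with array weights and 33 at an adjusted p under 0.1, and 7 to 27 with 1 array left out (8 without SCLtg LMO1tg array 2 or 3, 27 without control array 1, 7 without control array 2). With the replicate block 9 genes passed, the ribosomal protein count stayed 0 and their median difference stayed 0.12. That median kept its sign under all alternatives run, and was lowest, 0.03, without control array 2. Signs turned for some genes, among them *Rpl27a*, the lowest at −0.29. With array weights *Rpl38* was at 0.019, *Rps28* at 0.10, *Rps2* at −0.063 and *Rps14* at −0.042. With arrays centred, *Rps27* was at 0.0079, *Rpl39* at 0.019 and *Rps28* at 0.044. With the block for hybridization sets, *Rps27* was at 0.0040, *Rpl39* at 0.0061 and *Rpl13a* at −0.035. With the mean of probe sets, *Rps24* was at 0.063 and *Rps14* at −0.0075. After a second quantile normalization, *Rpl37* was at −0.079, *Rps14* at −0.057 and *Rps19* at −0.022. With shared probe sets admitted, *Rps27* was at 0.15 and *Rpl13a* at −0.0034. With 1 array left out, the lowest and highest differences were −0.59 and 0.056 for *Rpl27a*, −0.18 and 0.017 for *Rpl38*, −0.11 and 0.042 for *Rps24*, −0.084 and 0.025 for *Rps27*, −0.097 and 0.095 for *Rpl39*, −0.19 and 0.13 for *Rps28*, −0.028 and 0.096 for *Rps2*, −0.23 and 0.45 for *Rpl37*, −0.018 and 0.10 for *Rps14* and −0.028 and 0.36 for *Rpl13a*. The cause of these changes was not tested. With 3 arrays a group, an SE near 0.17 on the log2 scale was the median of the ribosomal protein genes, larger than most of their differences.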
